A study of Mus musculus with 6 samples.

Results

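The genes that build cholesterol and fatty acids, together with the regulators that sense sterols, were read in RNA-seq of WT and Rnf20 knockout reprogrammable cells. The list held 33 genes, taken by symbol as members of these pathways, with earlier results of these data known. Of these, 31 had a row among the 16982 genes of the count table, and all 31 passed the filter on low counts that left 13386 genes for testing. Mvd and Tm7sf2 were not analysed here.

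The 6 libraries came from mouse embryonic fibroblasts (MEF) of C57BL/6 background on day 3 after infection with retroviruses for the reprogramming factors OCT4, SOX2, C-MYC and KLF4, 3 labelled wild type (WT) and 3 labelled Rnf20-/- (knockout). RNF20 is the E3 ligase that places a single ubiquitin on histone H2B, and the comparison asks which transcripts depend on it early in reprogramming. The methods of the study derive the knockout cells from Rnf20 Flox/Flox; Tamoxifen-cre embryos, whose Cre is expressed in all tissues and is switched on by 4-OH tamoxifen, whereas the labels give all 6 samples as untreated. The sources used here do not say whether WT cells carried the floxed alleles or Cre, or received the drug. The methods also describe replating of infected cells on mitomycin-C-treated MEF feeder cells, without saying whether feeder RNA was collected. The labels do not say that the replicates came from separate embryos or cultures, so the p-values measure only the spread between these libraries, which may be technical in part, although Y-linked transcripts, given below, differed among the knockout libraries.

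Cholesterol is built from acetyl-CoA through mevalonate, farnesyl diphosphate, squalene and lanosterol. Fatty acids are built from the same acetyl-CoA by citrate cleavage, carboxylation and repeated condensation, and are then elongated and desaturated. Most genes of both routes are known targets of the transcription factors SREBP-1 and SREBP-2, products of Srebf1 and Srebf2, which SCAP escorts from the endoplasmic reticulum for activation when sterols are low and which INSIG-1 and INSIG-2 retain there when sterols are high. Sterol-responsive promoters of this family typically pair an SREBP site with boxes for NF-Y or Sp1.

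Promoter windows from RefSeq (build GRCm38.p6, 250 bases before to 50 after a gene start) were at hand for 24 of the 31 genes, and none was at hand for Fdps, Fdft1, Sqle, Stard4, Scd1, Scd2 and Fads1. The 24 genes have 32 windows, as some genes, Insig2 and Pmvk among them, have more than 1 start. Which start these cells use is not known. For 4 of the genes the 150 bases before the start of the first window listed are printed 5′ to 3′ on the gene strand. These are Hmgcs1 as the sole holder of the sterol regulatory element searched, Fasn as a gene whose level separated the knockout libraries, Pmvk as a gene that fell and Insig2 as a gene that rose. In Insig2 and Pmvk the NF-Y boxes found stood only in the window printed. Capitals mark the sterol regulatory element TCACNCCAC and the NF-Y box CCAAT, read on either strand (ATTGG is the NF-Y box on the other strand), and in Fasn a CCAAT and an ATTGG overlap.
Hmgcs1, chr13:119690201-119690350, plus strand: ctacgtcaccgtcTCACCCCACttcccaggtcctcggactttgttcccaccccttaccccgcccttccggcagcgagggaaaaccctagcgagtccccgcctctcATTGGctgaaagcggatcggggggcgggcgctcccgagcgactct
Fasn, chr11:120824548-120824697, minus strand: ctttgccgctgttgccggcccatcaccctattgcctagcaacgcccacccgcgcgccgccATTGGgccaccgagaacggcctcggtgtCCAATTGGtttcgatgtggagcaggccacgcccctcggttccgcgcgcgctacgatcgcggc
Pmvk, chr3:89454391-89454540, plus strand: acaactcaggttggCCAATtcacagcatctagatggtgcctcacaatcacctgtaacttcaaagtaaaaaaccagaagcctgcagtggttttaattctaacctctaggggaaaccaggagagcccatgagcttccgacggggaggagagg
Insig2, chr1:121332590-121332739, minus strand: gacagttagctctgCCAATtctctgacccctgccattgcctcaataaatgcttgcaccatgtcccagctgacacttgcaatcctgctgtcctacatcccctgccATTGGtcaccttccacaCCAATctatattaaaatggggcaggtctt

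Over the whole windows the NF-Y box stood in 19 of 24 genes (79.2%), beside 43.1% of the 10069 tested genes that have a window and 41.1% of all 27025 genes with one. The Sp1 box GGGCGG was likewise in 19 of 24 (79.2%), beside 69.0% of tested genes and 38.2% of all. The E-box CANNTG was in 18 of 24 (75.0%), beside 67.4% and 75.0%. The sterol regulatory element in these exact letters was in 1 of 24 (4.17%), at position -137 from the start of Hmgcs1, beside 1.42% and 1.44%. A gene was counted if any of its windows held the motif. By window, the NF-Y box stood in 20 of 32 (62.5%), beside 37.4% of all windows, and the Sp1 box in 23 of 32 (71.9%), beside 35.7%. All motifs were searched on both strands, and a match is a run of letters, not a site shown to be bound.

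Libraries held 20545442 to 21746898 counts, and no gene of the list had fewer than 200 counts in a library. In CPM, the count of a gene scaled to a common library total through TMM-normalized library sizes, Rnf20 stood at 107, 107 and 106 in WT and at 18.7, 18.5 and 16.4 in knockout replicates 1, 2 and 3, which set the genotypes apart as labelled. Knockout replicate 3 stood apart across all genes: the chi-square per gene was 92.4 and 101.4 against knockout replicates 1 and 2, beside 8.57 between those and 6.04 to 8.92 between WT libraries. Y-linked transcripts summed to 0 and 1 count in knockout replicates 1 and 3 and to between 4774 and 5608 in the other libraries. Of 10 fibroblast markers, Thy1 and Pdgfra fell by the test given below, beside 16.6% of all genes tested that fell. The summed level of the 10 was 30335 to 33097 CPM in WT and 31976, 39856 and 21634 CPM in the knockout libraries. Markers of the labelled cell type were thus abundant in all 6 libraries. All 15 proliferation genes listed fell, beside the same 16.6% of all genes. Their summed levels went from 1967 to 2012 CPM in WT to 874, 765 and 325 CPM in knockout replicates 1, 2 and 3.

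Of the lipid synthesis genes more fell than rose in Rnf20 knockout cells, mostly by small amounts. At an adjusted p under 0.05 by edgeR's quasi-likelihood test, 10 of the 31 genes fell (Acat2, Pmvk, Fdps, Sqle, Lss, Nsdhl, Ebp, Acaca, Elovl6 and Fads1), beside 16.6% of all genes tested that fell. Only Insig2 and Msmo1 rose, 2 of 31, beside 16.4% of all genes, and 19 did not pass the test. The median log2 fold change of knockout over WT was -0.32 over the 31 genes and -0.00032 over all genes tested. Differences were small: Elovl6 alone had an absolute log2 fold change over 1, and at the limits of the study (adjusted p under 0.01, absolute log2 fold change over 1, mean FPKM over 1) 0 genes fell or rose, beside 2.08% of all genes lower and 1.50% higher. At an unadjusted p under 0.05 by the same test 14 were lower and 4 higher, while DESeq2 and edgeR's exact test each counted 1 gene lower at the limits of the study, Elovl6. Bulk RNA cannot tell fewer cells of a type from less RNA in each cell.

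The 12 calls depended on single libraries to different degrees. Leaving out WT replicate 1, 2 or 3 left 3 genes lower and 0 higher each time. Of all genes, 5.17% to 7.31% were then lower and 5.11% to 7.01% higher. At an unadjusted p under 0.05 these fits gave 10, 13 and 9 lower and 2, 2 and 3 higher, without a count over all genes. Leaving out knockout replicate 1 left 6 lower and 3 higher, beside 13.4% and 14.2% of all genes. Leaving out knockout replicate 2 left 5 lower and 1 higher, beside 11.6% and 12.4%. Without knockout replicate 3, 15 fell and 4 rose, beside 24.2% and 23.9% of all genes, and the median moved to -0.22. The same 12 genes were among those 19. Acat2, Pmvk and Fads1 were the 3 genes called whichever library was left out.

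**Figure D1:**
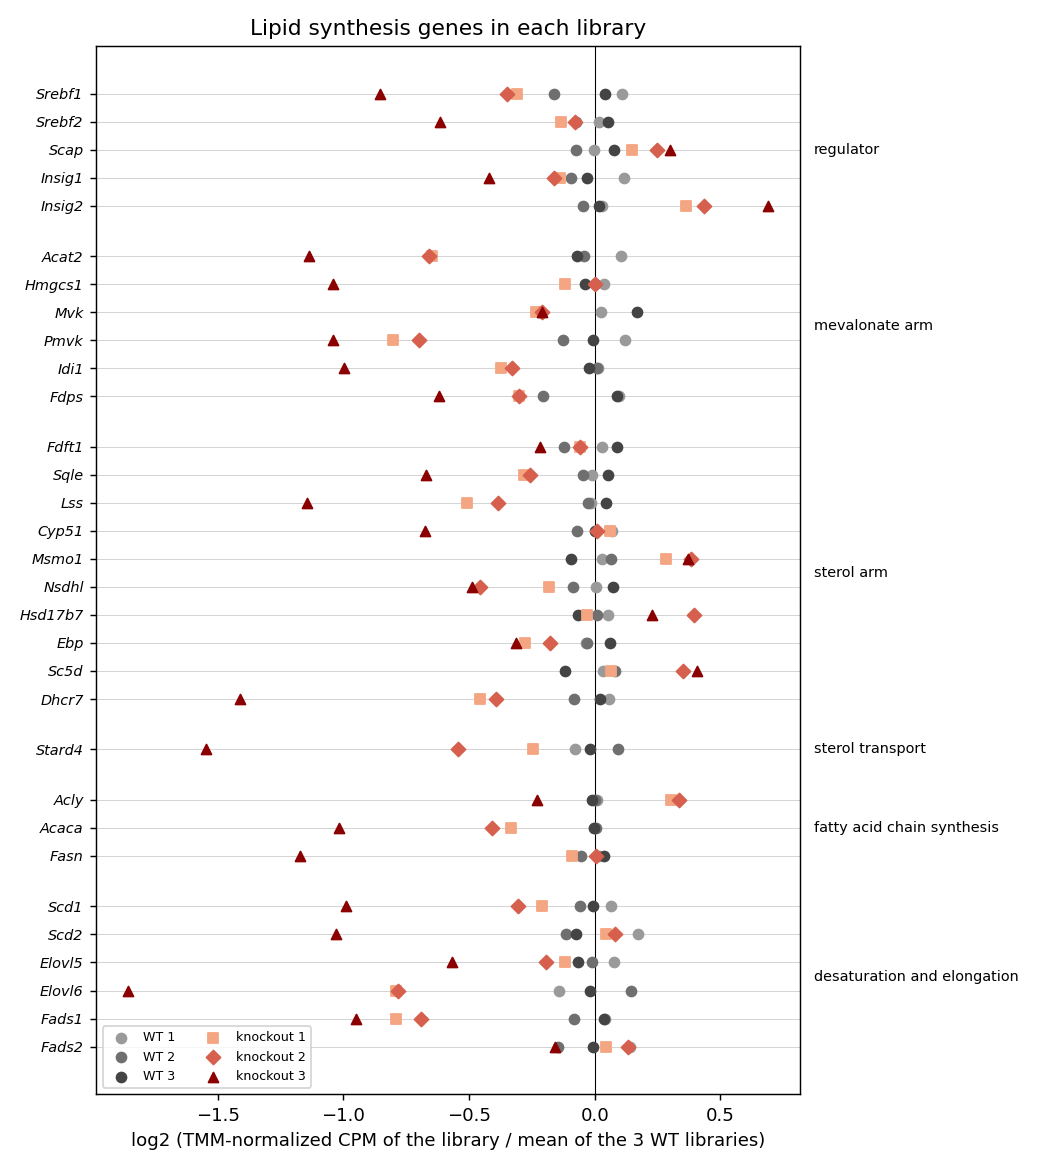
Each row is a gene and each point a library, placed at the log2 ratio of its TMM-normalized CPM to the mean of the 3 WT libraries (grey circles, WT; squares, diamonds and triangles, knockout replicates 1, 2 and 3), with genes grouped by role. Most knockout points lie left of WT, and knockout replicate 3 is the lowest of the 6 libraries in 25 of 31 genes.

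Among the 5 regulators Insig2 rose, beside 16.4% of all genes tested that rose, and Srebf1, Srebf2, Scap and Insig1 did not pass the test. Insig2, which encodes an endoplasmic reticulum anchor for SCAP, stood at 25.7, 24.4 and 25.5 CPM in WT and at 32.4, 34.0 and 40.6 CPM in knockout replicates 1, 2 and 3. All 3 knockout libraries lay above WT, replicate 3 highest. Its log2 fold change was 0.50 ± 0.11 (SE, n = 3 per genotype; adjusted p = 0.0152), and the adjusted p was 0.0554, 0.0657 and 0.0646 without WT replicate 1, 2 or 3. Insig1, its paralog and itself a well known SREBP target, ran the other way, at 68.0, 58.7 and 61.4 CPM in WT and 56.9, 56.0 and 46.8 CPM in knockout, below WT in every library without passing the test (-0.24 ± 0.10, adjusted p = 0.126).

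The SREBP genes themselves were below WT in all 3 knockout libraries without passing the test. Srebf1 stood at 136, 112 and 129.5 CPM in WT and 102, 98.8 and 69.6 CPM in knockout (-0.48 ± 0.16, adjusted p = 0.0539). Without knockout replicate 3 its difference was smaller and passed the test (-0.33 ± 0.08, adjusted p = 0.0060). Srebf2 stood at 276, 258 and 282 CPM in WT and 248, 257 and 177 CPM in knockout, where replicates 1 and 2 lay just under the lowest WT library and replicate 3 far under it (-0.26 ± 0.14, adjusted p = 0.206). Scap was above WT in all 3 knockout libraries (93.9 to 104 CPM in WT, 109.6 to 122 CPM in knockout; 0.23 ± 0.08, adjusted p = 0.0545) and passed the test without knockout replicate 3 (0.20 ± 0.06, adjusted p = 0.0247). Exons of Srebf1 and Scap overlap those of other genes, and although the library kit marks strand, whether counting used it is not stated, which leaves their counts uncertain.

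In the mevalonate arm 3 of 6 genes fell, beside 16.6% of all genes tested. All 6 had negative log2 fold changes, with a median of -0.47. Acat2, which joins acetyl-CoA units at the entry of the pathway, stood at 73.4, 66.2 and 65.0 CPM in WT and 43.5, 43.1 and 31.0 CPM in knockout. Pmvk, the phosphomevalonate kinase whose promoter is printed above, stood at 21.3, 17.9 and 19.5 CPM in WT and 11.2, 12.1 and 9.53 CPM in knockout. In both genes every knockout library lay well below every WT library, replicates 1 and 2 included. The log2 fold changes were -0.80 ± 0.14 for Acat2 (adjusted p = 0.0096) and -0.84 ± 0.13 for Pmvk (adjusted p = 0.0064).

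Hmgcs1, the HMG-CoA synthase that feeds mevalonate production, had no such shift in replicates 1 and 2. It stood at 199, 194 and 189 CPM in WT and at 179, 194 and 94.3 CPM in knockout, so that replicate 2 lay within WT and replicate 3 at 48.6% of the WT mean. Its log2 fold change was -0.32 ± 0.25 (adjusted p = 0.357) with all libraries and -0.05 ± 0.06 (adjusted p = 0.453) without knockout replicate 3. Idi1, the isopentenyl diphosphate isomerase, stood at 98.6, 98.5 and 96.3 CPM in WT and 75.6, 77.9 and 49.0 CPM in knockout. The genotypes did not overlap, and the difference, which missed the threshold with all libraries (-0.54 ± 0.17, adjusted p = 0.0528), passed without knockout replicate 3 (-0.35 ± 0.06, adjusted p = 0.000643). Fdps, the farnesyl diphosphate synthase, fell from 136, 111 and 136 CPM to 103, 103 and 82.9 CPM (-0.40 ± 0.12, adjusted p = 0.0477), a call lost on leaving out any library other than knockout replicate 3 (adjusted p 0.0557 to 0.152). Mvk, the mevalonate kinase, overlapped between genotypes (24.7 to 32.4 CPM in WT, 24.5 to 24.9 CPM in knockout). Hmgcs1, Idi1 and Fdps each overlap exons of a predicted gene.

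The sterol arm, from squalene to cholesterol, was mixed. Of 10 genes 4 fell (Sqle, Lss, Nsdhl and Ebp) and Msmo1 rose, beside 16.6% of all genes tested that fell and 16.4% that rose. The other 5 did not pass the test, and the median log2 fold change was -0.21. Lss, the lanosterol synthase that closes the sterol rings, stood at 49.8, 49.4 and 51.9 CPM in WT and 35.4, 38.6 and 22.8 CPM in knockout. All knockout libraries were below WT, replicate 3 by the most (-0.64 ± 0.19, adjusted p = 0.0397; -0.44 ± 0.07, adjusted p = 0.000516 without replicate 3). Sqle, the squalene epoxidase and a rate-limiting step, stood at 83.6, 81.6 and 87.5 CPM in WT and 69.4, 70.4 and 52.8 CPM in knockout (-0.39 ± 0.12, adjusted p = 0.0462). Nsdhl, of the C4 demethylation complex, and Ebp, the sterol isomerase, are both X-linked and fell by 0.37 ± 0.11 and 0.26 ± 0.08 on the log2 scale (adjusted p = 0.0424 and 0.0435). None of these 4 calls held on leaving out any 1 WT library (adjusted p 0.0863 to 0.144), and 1 or both of the leave-outs of knockout replicates 1 and 2 ended the call of each (adjusted p 0.0544 to 0.109). Nsdhl and Ebp stood in all 3 knockout libraries below WT, at 25.8, 21.3 and 20.9 CPM against 27.6 to 30.8 CPM, and at 31.8, 34.1 and 31.1 CPM against 37.7 to 40.3 CPM.

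Msmo1, the C4-methylsterol oxidase that acts beside NSDHL in the same demethylation, rose. It stood at 40.9, 42.0 and 37.6 CPM in WT and 48.9, 52.4 and 51.9 CPM in knockout, every knockout library above WT and replicate 3 between the other two (0.35 ± 0.08, adjusted p = 0.0176; 0.0521 to 0.0759 without WT replicate 1, 2 or 3 or knockout replicate 2). The reductase gene Hsd17b7 and the desaturase gene Sc5d had positive log2 fold changes of 0.21 ± 0.12 and 0.28 ± 0.11 without passing the test (adjusted p = 0.216 and 0.0921), and knockout replicate 1 overlapped WT in both. Sc5d passed the test without knockout replicate 1 (0.38, adjusted p = 0.0353). Cyp51, the lanosterol demethylase, stood at 106, 96.4 and 101 CPM in WT and 105, 102 and 63.4 CPM in knockout, where replicates 1 and 2 lay within the WT range and replicate 3 below it. Its log2 fold change turned from -0.17 ± 0.19 (adjusted p = 0.519) to 0.04 ± 0.06 (adjusted p = 0.659) without replicate 3. Fdft1, the squalene synthase, did not separate the genotypes (61.1 to 70.6 CPM in WT, 57.2 to 63.9 CPM in knockout). Exons of Fdft1, Lss and Cyp51 overlap those of a gene on the opposite strand, Ctsb for Fdft1 and Akap9 for Cyp51.

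Dhcr7, which reduces 7-dehydrocholesterol to cholesterol, and Stard4, which carries cholesterol through the cytosol, were among the genes whose level in knockout replicate 3 lay furthest below the other knockout libraries. Dhcr7 stood at 48.5, 44.0 and 47.3 CPM in WT and 33.9, 35.5 and 17.5 CPM in knockout. Stard4 stood at 53.7, 60.5 and 55.9 CPM in WT and 47.8, 38.8 and 19.4 CPM in knockout. All knockout libraries of both genes were below WT, replicate 3 at 37.6% and 34.2% of the WT mean. Neither passed the test with all libraries (Dhcr7 -0.69 ± 0.25, adjusted p = 0.0767; Stard4 -0.68 ± 0.30, adjusted p = 0.119), and both did without replicate 3, at smaller differences (-0.42 ± 0.07, adjusted p = 0.000832; -0.39 ± 0.09, adjusted p = 0.0065).

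**Figure D2:**
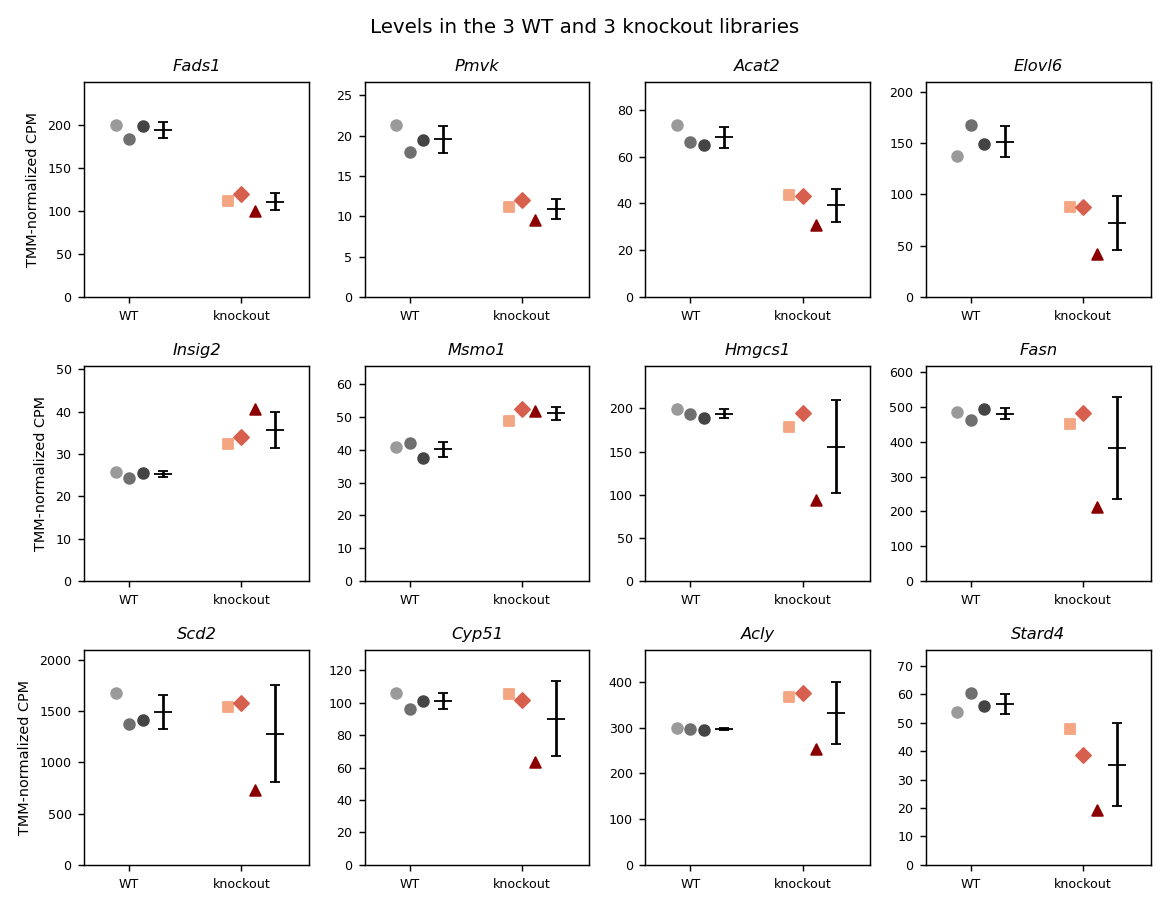
TMM-normalized CPM (linear axis from 0) of 12 genes in each library, with the mean and SD of 3 libraries per genotype as bar and whiskers beside the points (circles, WT; square, diamond and triangle, knockout replicates 1, 2 and 3). In Fads1, Pmvk and Acat2 all knockout libraries lie below WT, whereas in Hmgcs1, Fasn, Scd2 and Cyp51 only knockout replicate 3 lies clearly below.

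The 3 genes of fatty acid chain synthesis differed in their levels across the knockout libraries, with a median log2 fold change of -0.33 that was -0.04 without knockout replicate 3. Acaca, the acetyl-CoA carboxylase that commits acetyl-CoA to fatty acids, fell from 195, 196 and 196 CPM in WT to 155, 147 and 96.6 CPM in knockout. All 3 knockout libraries were below WT (-0.56 ± 0.17, adjusted p = 0.0474), a call lost without WT replicate 1, 2 or 3 or knockout replicate 2 (adjusted p 0.0652 to 0.128). Fasn, the fatty acid synthase, stood at 486, 463 and 494 CPM in WT and 451, 483 and 213 CPM in knockout, so that knockout replicate 2 lay within WT, replicate 1 just under it, and replicate 3 at 44.3% of the WT mean. Its log2 fold change was -0.33 ± 0.28 (adjusted p = 0.393), and -0.04 ± 0.06 (adjusted p = 0.573) without replicate 3. Acly, the ATP-citrate lyase that supplies cytosolic acetyl-CoA, stood at 300.4, 298 and 296 CPM in WT and 368, 376 and 255 CPM in knockout. Replicates 1 and 2 lay above WT and replicate 3 below it, and Acly rose once replicate 3 was left out (0.32 ± 0.05, adjusted p = 0.000424; 0.16 ± 0.15, adjusted p = 0.437 with it).

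Among the 6 desaturases and elongases, Elovl6 and Fads1 fell, beside 16.6% of all genes tested that fell. The other 4 did not pass the test, and the median log2 fold change was -0.37, or -0.20 without knockout replicate 3. Fads1, the delta-5 desaturase of polyunsaturated fatty acids, had the lowest adjusted p of the 31 genes. It stood at 199, 183 and 199 CPM in WT and 112, 119.8 and 100.4 CPM in knockout, with replicate 3 close to the other knockout libraries (-0.81 ± 0.09, adjusted p = 0.0033). Its neighbour on chromosome 19, the delta-6 desaturase Fads2, stood at 138, 113 and 125 CPM in WT and 129, 137 and 112 CPM in knockout, fully overlapping (0.01 ± 0.11, adjusted p = 0.944), and the sign of so small a difference turned with the scaling, being -0.05 with library totals alone. Elovl6, which extends palmitate to stearate, had the largest difference of the list. It stood at 137, 167 and 149 CPM in WT and 87.3, 87.8 and 41.8 CPM in knockout, all knockout libraries below WT and replicate 3 lowest (-1.06 ± 0.28, adjusted p = 0.0281; -0.79 ± 0.08, adjusted p = 3.7e-05 without replicate 3). The call ended without WT replicate 1, 2 or 3 (adjusted p 0.0699 to 0.0957), and an exon of a predicted opposite-strand gene overlaps it.

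The stearoyl-CoA desaturases, which make monounsaturated fatty acids, did not pass the test. Scd2, the most abundant member per transcript length (384 FPKM in WT, the length-scaled unit of Cufflinks, beside a median of 31.1 FPKM over the list and 11.8 FPKM over all genes), stood at 1677, 1376 and 1417 CPM in WT and 1539, 1576 and 730.1 CPM in knockout. Replicates 1 and 2 lay within WT, and only replicate 3 was low (-0.22 ± 0.28, adjusted p = 0.577; 0.07 ± 0.08, adjusted p = 0.542 without it). Scd1 stood at 373, 342 and 355 CPM in WT and 308, 289 and 179.7 CPM in knockout, below WT in all 3 (-0.46 ± 0.19, adjusted p = 0.109), and fell without replicate 3 (-0.26 ± 0.06, adjusted p = 0.0048). Scd1 and Scd2 are neighbouring paralogs on chromosome 19, a microRNA gene overlaps an exon of Scd2, and how the counting split reads between near-identical stretches is not stated. Elovl5, an elongase of polyunsaturated chains, stood at 99.9 to 110.2 CPM in WT and 96.5, 91.4 and 70.5 CPM in knockout (-0.28 ± 0.13, adjusted p = 0.127).

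**Figure D3:**
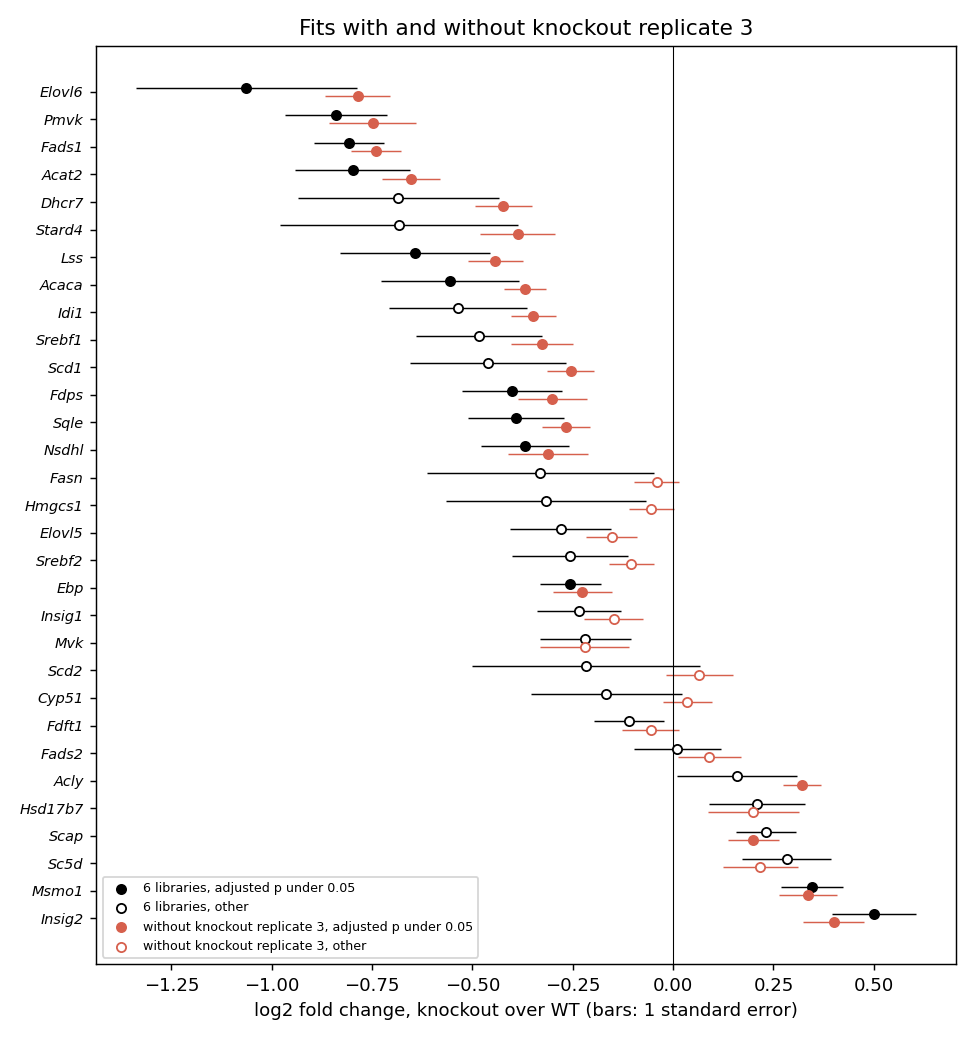
Log2 fold change of knockout over WT for each gene with 1 standard error, fitted to all 6 libraries (black) and to 5 libraries without knockout replicate 3 (red), with filled points at an adjusted p under 0.05 in edgeR's quasi-likelihood test. Without replicate 3 most differences move toward 0 and the bars shorten, and filled points go from 12 to 19.

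Most of these genes were lowest in knockout replicate 3. It was the lowest of all 6 libraries in 25 of the 31 genes (34.0% of all genes tested) and stood over 1 log2 unit below the WT mean in 10 of them (12.2% of all genes). It stood over 0.5 log2 units below the mean of knockout replicates 1 and 2 in 14 of 31, beside 16.6% of all genes. The median log2 difference between replicate 3 and that mean was -0.41 over the list and -0.00078 over all genes. Set against the WT mean, the list's median was -0.18 and -0.19 in knockout replicates 1 and 2 and -0.67 in replicate 3, with -0.016 over all genes in replicate 3. Summed over the 31 genes, the level was 4884 to 5377 CPM in WT, 4774 and 4884 CPM in knockout replicates 1 and 2, and 2983 CPM in replicate 3, a sum in which Scd2 weighs most.

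Counting libraries rather than tests, every knockout library was under the lowest WT library in 18 of 31 genes, beside 28.2% of all genes, every knockout library was over the highest WT library in Scap, Insig2 and Msmo1 (3 of 31, beside 26.6%), and the genotypes overlapped in 10. With knockout replicates 1 and 2 alone, 18 genes were below WT (33.7% of all genes) and 4 above (33.4%), Acly being the fourth. Other markers also moved in replicate 3. The 8 macrophage markers summed to 52.0 to 111 CPM in WT and to 88.8, 57.3 and 248 CPM in knockout replicates 1, 2 and 3. Lyz2 made up 159 CPM of the sum in replicate 3, where Mrc1, at 1.91 CPM, was the lowest of the 6 libraries. The 7 epithelial markers with a row summed to 44.1 to 46.4 CPM in WT and to 34.8, 24.5 and 3.81 CPM in knockout, with Cldn3 called lower, and the 5 endothelial markers to 48.3 to 59.0 CPM and 66.9, 53.6 and 32.3 CPM, nearly all of it Tek, with Pecam1, Cdh5 and Emcn at or near 0. The 8 adipocyte markers with a row, genes of a cell type rich in fatty acid synthesis, summed to 39.9 to 51.8 CPM in WT and 27.1, 24.0 and 55.7 CPM in knockout, with Adipoq, Plin1 and Lep at or near 0 in all 6 libraries and Lpl and Lipe called lower. Cd36 made up 28.7 CPM of the sum in replicate 3, beside 2.28 to 5.44 CPM in the other libraries. The part of these shifts, and of the lower proliferation genes, in the lipid synthesis result was not tested.

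**Figure D4:**
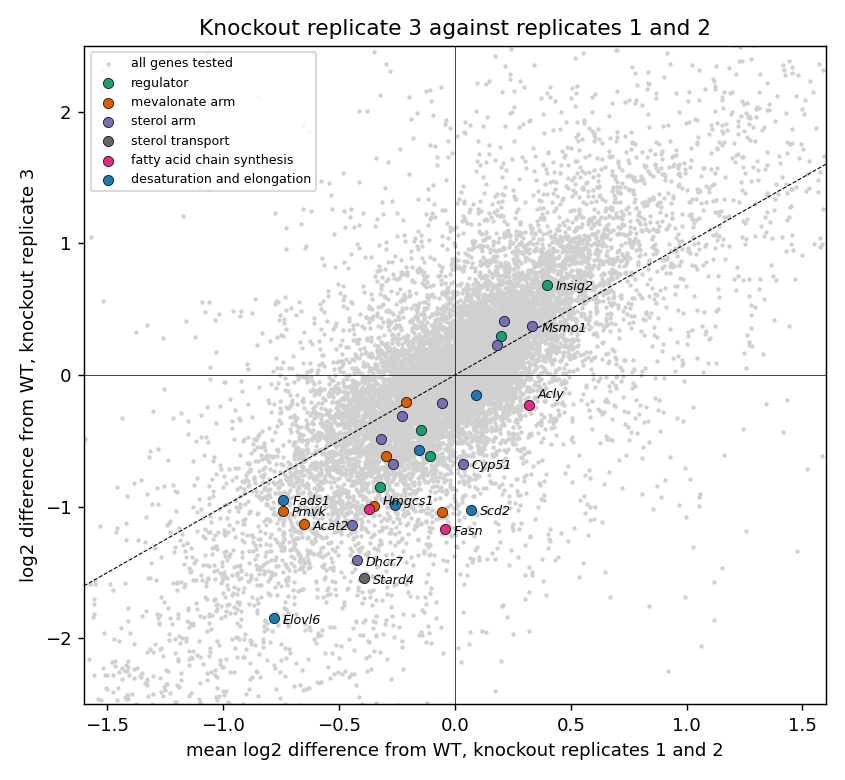
Log2 difference from the WT mean in knockout replicate 3 (vertical) against the mean of knockout replicates 1 and 2 (horizontal) for all genes tested (grey, those beyond the axes left out) and the 31 lipid synthesis genes (coloured by role). The dashed line marks equal differences, and 25 of 31 genes have a lower level in replicate 3 than in both other knockout libraries, with Fasn, Scd2, Hmgcs1 and Cyp51 near 0 on the horizontal axis.

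Genes around the pathway both fell and rose. Their counts stand beside 16.6% of all genes tested that fell and 16.4% that rose (24.2% and 23.9% without knockout replicate 3). Whether the lists differ from these shares was not tested. Of 10 genes that process or degrade SREBP and INSIG proteins 3 fell and 4 rose, with the same counts without knockout replicate 3. Fbxw7, which marks nuclear SREBP for degradation, rose (0.39 ± 0.08, adjusted p = 0.0117), while Erlin1, an endoplasmic reticulum protein that holds INSIG and SREBP complexes, fell (-0.47 ± 0.08, adjusted p = 0.0086), as did the sterol-binding Pgrmc1 (-0.31 ± 0.07, adjusted p = 0.0171). Of 22 other genes of synthesis, uptake and supply of carbon or NADPH, 5 fell and 4 rose (6 and 6 without knockout replicate 3). Aldoc, an aldolase, stood at 72.6, 64.3 and 72.1 CPM in WT and 27.7, 22.6 and 9.34 CPM in knockout (-1.81 ± 0.36, adjusted p = 0.0126). Me1, the malic enzyme that makes NADPH for fatty acid synthesis, rose (0.64 ± 0.08, adjusted p = 0.0044), and so did Hsd17b12, the ketoreductase of chain elongation (0.56 ± 0.07, adjusted p = 0.0040), with all knockout libraries above WT in both.

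Of 9 genes tested on the isoprenoid branches that do not lead to sterols, 1 fell and 2 rose (2 and 3 without knockout replicate 3). One gene that rose here, Ggps1, is also among the 4 that rose in the list of 22. Ggps1, which makes geranylgeranyl diphosphate from the product of FDPS, rose from 35.9, 37.9 and 36.3 CPM to 48.1, 48.9 and 52.2 CPM (0.44 ± 0.07, adjusted p = 0.0077). Pggt1b, a subunit of the geranylgeranyl transferase, rose (0.27 ± 0.08, adjusted p = 0.0473), and Pdss1, which builds the side chain of ubiquinone, fell (-0.79 ± 0.17, adjusted p = 0.0166). Among 16 genes of sterol traffic, storage and efflux 3 fell and 1 rose (4 and 5 without knockout replicate 3). Over all genes tested 16.6% fell and 16.4% rose (24.2% and 23.9% without knockout replicate 3). Scarb1, the HDL receptor, fell (-0.63 ± 0.08, adjusted p = 0.0039), as did the lipid carrier Apoe (-0.96 ± 0.17, adjusted p = 0.0098) and Mylip, a ligase that degrades lipoprotein receptors (-0.67 ± 0.17, adjusted p = 0.0261), while Lipa, the lysosomal acid lipase, rose (0.39 ± 0.10, adjusted p = 0.0262).

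On the opposing route, fatty acid oxidation, 4 of 17 genes fell and 2 rose (6 and 2 without knockout replicate 3), with a median log2 fold change of -0.06. Over all genes tested 16.6% fell and 16.4% rose (24.2% and 23.9% without knockout replicate 3). The mitochondrial thiolase Acaa2 fell (-0.86 ± 0.11, adjusted p = 0.0048), as did the electron carrier Etfa (-0.51 ± 0.07, adjusted p = 0.0059) and the dehydrogenase Hadh (-0.41 ± 0.07, adjusted p = 0.0096).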

How the data were processed

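Poly(A) RNA-seq of 3 WT and 3 Rnf20 knockout libraries was used, grouped by the labels. The authors aligned reads with HISAT2 2.1.0 to GRCm38/mm10 and deposited raw read counts per gene with gene lengths. The counting program, and whether it used strand, are not given in the sources used here. The authors also deposited FPKM values from Cufflinks 2.1.1 for 12633 genes, used for levels and an alternative. Their table also holds an FDR p-value and a log2 fold change of knockout over WT per gene, by the authors' own comparison, which were not used.

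Counts were analysed in R 4.3.3 with edgeR 4.0.16: TMM normalization, filterByExpr, and the quasi-likelihood test without covariates, with Benjamini-Hochberg adjustment over 13386 genes (common dispersion 0.0353). SE is the absolute log2 fold change over the square root of F. CPM use TMM-scaled library sizes, log2 values of single libraries a prior of 2 counts. The test was tested on simulated counts. None of the simulated libraries was made to stand apart as knockout replicate 3 does, so the simulation cannot show how the test behaves with such a library. DESeq2 1.42.0, limma 3.58.1 on log2(FPKM + 1) and log2(FPKM + 0.1), other normalizations and filters, a replicate block and each library left out were alternatives. A term for Y-linked transcripts was added after seeing the data.

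The members and all lists were chosen with earlier results of these data known. All members are named, Rnf20, and from each pathway or marker list at most 4 genes with the lowest adjusted p under 0.05, some of them left out here. Markers of other cell types at or near 0, that made up most of a sum, or that ran otherwise than the sum, were named outside that rule, after their values were seen. Positions and overlapping exons are from GENCODE M21, promoters from RefSeq GRCm38.p6.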

Additional observations from a re-analysis of the deposited data

How the results depend on the processing

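Direction held for most genes. Fads2, near 0, changed sign with library size only (-0.0502) and with limma on log2(FPKM + 1) (-0.0839) and log2(FPKM + 0.1) (-0.0851), and ranged from -0.0611 to 0.0900 with 1 library left out, negative without WT replicate 2, knockout replicate 1 (-0.0017) or knockout replicate 2. Over the same leave-outs Cyp51 ranged from -0.290 to 0.0352 and Scd2 from -0.390 to 0.0653, both positive without knockout replicate 3. The number of genes that fell, 10, was 6 without a filter on counts (beside 12.2% of all genes), and ranged from 3 to 15 with 1 library left out. The number that rose, 2, ranged from 0 to 4. At the limits of the study DESeq2 and the exact test each gave 1 gene lower. The replicate block left 4 genes lower and 1 higher, beside 11.1% and 10.3% of all genes. The numbers are not known to pair samples, and the deviations of same-numbered libraries correlated at -0.07, 0.04 and 0.01. A term for Y-linked transcripts was chosen after seeing the data. These transcripts were abundant in every WT library but in only 1 of 3 knockout libraries, replicate 2. With the term in the fit, the knockout difference therefore rests on replicate 2 alone. Hmgcs1 (0.0018), Cyp51 (0.0072), Fasn (0.0051) and Scd2 (0.0806) then changed sign. The levels of these 4 genes in knockout replicate 2 were 0.0022, 0.0083, 0.0056 and 0.086 log2 units above the WT mean. An effect of Y-linked transcripts as such was not tested, as 1 library cannot separate it from that library's own level. Acat2, Pmvk and Fads1 stayed below the threshold under every alternative other than that term. Each genotype has 3 libraries, and knockout replicate 3 stands apart.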
